A study of Homo sapiens with 6 samples.

Results

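Microtubules are built from tubulin, and humans carry several genes, called isotypes, for each kind of tubulin chain. The 10 isotype genes described here were chosen by name: the alpha-tubulin genes *TUBA1A*, *TUBA1B* and *TUBA1C*, the beta-tubulin genes *TUBB2A*, *TUBB2B*, *TUBB3*, *TUBB4A*, *TUBB4B* and *TUBB6*, and the gamma-tubulin gene *TUBG1*. All 10 were found among the 28395 genes counted, and all 10 were tested. The beta-tubulin genes listed are 6 of the family and not the whole of it. RNA was sequenced from NCI-H146 (H146) cells, an established small-cell lung cancer (SCLC) line of wild-type genotype, on day 2 after transfection with a negative control siRNA (3 libraries) or with an siRNA against *KIFC1* (3 libraries). *KIFC1* encodes a minus-end-directed kinesin that slides and bundles microtubules at spindle poles and clusters extra centrosomes. The libraries are labelled as biological replicates of a single cell line, and the knockdown used a single siRNA sequence.

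Alpha- and beta-tubulin pair into the dimer from which the microtubule wall is made, while gamma-tubulin sits in a ring complex at the centrosome and starts new microtubules. Isotypes of a family share most of their sequence and differ mainly in the acidic tail at the C terminus, which hangs from the microtubule surface, binds motors and other proteins and is modified by enzymes. *TUBB3* (class III) and the class II genes *TUBB2A* and *TUBB2B* are typical of neurons, and *TUBB3* is widely used as a marker of neurons and neuroendocrine tumors. *TUBB4B* (class IVb) is made in most tissues, *TUBB4A* (class IVa) mainly in brain and *TUBB6* (class V) broadly at a low level. *TUBA1A* is the main alpha-tubulin of developing neurons, and *TUBA1B* and *TUBA1C* are made in dividing cells of many kinds.

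The end of the coding sequence of the 6 beta-tubulin genes is shown because the isotypes differ most there. Each line gives the last 60 coding bases, stop codon included, of the Ensembl canonical transcript in GENCODE 44 on GRCh38, read 5′ to 3′ on the gene's own strand, with codons for glutamate (GAA and GAG) in capitals.
*TUBB2A* (chr6:3153863-3153922, minus strand): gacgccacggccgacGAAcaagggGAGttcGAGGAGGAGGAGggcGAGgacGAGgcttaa
*TUBB2B* (chr6:3224751-3224810, minus strand): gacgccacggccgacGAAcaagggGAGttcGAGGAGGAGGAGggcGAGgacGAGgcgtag
*TUBB3* (chr16:89935745-89935804, plus strand): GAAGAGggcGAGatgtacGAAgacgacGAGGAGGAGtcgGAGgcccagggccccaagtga
*TUBB4A* (chr19:6495164-6495223, minus strand): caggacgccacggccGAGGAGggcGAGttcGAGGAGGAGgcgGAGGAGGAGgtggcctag
*TUBB4B* (chr9:137243497-137243556, plus strand): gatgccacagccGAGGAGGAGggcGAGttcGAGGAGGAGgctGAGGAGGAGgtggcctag
*TUBB6* (chr18:12326071-12326130, plus strand): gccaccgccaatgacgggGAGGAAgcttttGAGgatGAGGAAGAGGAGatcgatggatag
Among 20 codons (stop included) the tails held from 7 glutamate codons in *TUBB6* to 10 in *TUBB4B*. *TUBB3* had 8 and ends in a lysine codon, and it was the only one of these 6 tails with a codon for a basic residue. The last 60 coding bases of *TUBG1* (chr17:42614982-42615041) held 2 glutamate codons.

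The start of the coding sequence also matters for tubulin RNA, since TTC5 recognizes the first residues of new alpha- and beta-tubulin chains on the ribosome and brings about decay of their RNA when free dimer is in excess. The first 12 coding bases were atgcgtgagatc in *TUBB2B* and atgagggagatc in *TUBB3*, which encode the Met-Arg-Glu-Ile start of beta-tubulin. *TUBG1* starts with atgccgagggaa, which does not encode this start.

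Over the whole coding sequence *TUBA1A* and *TUBA1B* were 97.2% identical, *TUBA1B* and *TUBA1C* 96.8%, and *TUBA1A* and *TUBA1C* 95.9%. *TUBB2A* and *TUBB2B* were 98.1% identical, and the other pairs of beta-tubulin genes 83.2% to 90.1%. Reads from such copies can be split between genes or dropped by the counting, and how reads with several places were treated is not given in the sources used here. Of the 32-base words in each gene's exons, 29.4% in *TUBB2A*, 41.8% in *TUBB2B* and 42.7% in *TUBA1B* occurred nowhere else on the main sequences of GRCh38. The unique share was 78.2% in *TUBB3*, 76% in *TUBB4B* and 95.8% in *TUBB6*. *TUBB2A* shared 65.3% of its words with *TUBB2B*, *TUBA1B* shared 40% with *TUBA1A*, and *TUBG1* shared 33.8% with its neighbor *TUBG2*. *TUBA1A* and *TUBA1C* overlap on opposite strands, and *TUBB3* is overlapped on its own strand by another protein-coding gene model. On the opposite strand *TUBB4B* is overlapped by *FAM166A*, *TUBB6* by *AFG3L2* and *TUBB4A* by noncoding RNA genes. The strand setting of the counting is not given in the sources used here. The values of all members, also those of *TUBB4A*, *TUBB4B* and *TUBB6*, are therefore uncertain as values of single genes.

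Total counts ran from 15392374 to 17754458 per library, mitochondrial genes took 8.34% to 13.1% of them, and 19437 to 20472 genes had a count. The targeted gene *KIFC1* was counted 14, 4 and 14 times with control siRNA and 1, 1 and 0 times with KIFC1 siRNA. The summed counts, 32 against 2, gave a ratio of 14.8 at equal depth (95% exact interval 3.78 to 128, counting error only). The low-count filter removed *KIFC1*, and all of its 32-base words (100%) also occur on alternate sequences of GRCh38. The neuroendocrine markers *INSM1*, *SYP*, *NCAM1* and *DLL3* lay between 53.3 and 817 CPM (counts scaled to equal library size), and *CHGA* ranged from 6.51 to 53.8 CPM. *NEUROD1*, *POU2F3*, *YAP1*, *VIM*, *PECAM1* and *KRT5*, which mark other SCLC subtypes or other cells, stayed under 1 CPM in every library, and *PTPRC* and *COL1A1* lay between 1.31 and 3.62 CPM. Between groups *NCAM1* was lower (log2 fold change -0.42, standard error 0.11), with an edgeR adjusted p of 0.136 without and 0.000677 with the replicate number as a block. *CHGA* was higher, at 8.81, 6.51 and 7.725 CPM with control siRNA and 9.25, 53.8 and 29.5 CPM with KIFC1 siRNA. Its log2 fold change was 2.00 (standard error 0.66, edgeR adjusted p = 0.436 without and 0.483 with the block). The groups of *INSM1*, *SYP* and *DLL3* overlapped. Whether *NCAM1* or *CHGA* has a part in the tubulin values was not tested.

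Of the alpha-tubulin genes *TUBA1B* had the highest level. Levels of the tubulin genes are set against each other as CPM per kilobase, that is, CPM scaled by edgeR's TMM method and divided by the length of all exons of a gene's protein-coding transcripts. *TUBA1B* stood at 1536, 1438 and 1201 CPM per kilobase in the 3 control libraries, a mean of 1391 ± 172 (SD, n = 3). In counts, without a length, it ranked number 17 of the 23245 genes with a count and *TUBA1A* number 28, ranks that gene length also sets. *TUBA1A* followed at 576, 549 and 467 CPM per kilobase, with a mean of 531 ± 56.6 (SD, n = 3), and its libraries all lay below those of *TUBA1B*. *TUBA1C* was far lower, at 159, 145.9 and 126, with a mean of 144 ± 16.6 CPM per kilobase (SD, n = 3).

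The beta-tubulin genes spanned a wider range. *TUBB4B* was highest at 266, 248 and 221 CPM per kilobase in the control libraries, with a mean of 245 ± 22.7 (SD, n = 3). With this length it was above every other beta-tubulin gene listed in every library. The neuronal isotypes came next. *TUBB2B* stood at 159, 155 and 132 (mean 149 ± 14.6, SD, n = 3), *TUBB3* at 125, 132 and 113 (123 ± 9.35) and *TUBB2A* at 98.0, 98.5 and 91.9 (96.1 ± 3.68), all in CPM per kilobase. *TUBB6* was lower at 19.1, 17.3 and 15.3, with a mean of 17.2 ± 1.90 CPM per kilobase (SD, n = 3). *TUBB4A*, with only 24, 14 and 18 counts, reached 0.40 ± 0.11 CPM per kilobase (SD, n = 3), which put it 42.8-fold under *TUBB6*. The gamma-tubulin gene *TUBG1* stood at 79.1, 78.8 and 64.9 CPM per kilobase, with a mean of 74.3 ± 8.13 (SD, n = 3).

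In descending order the levels ran *TUBA1B*, *TUBA1A*, *TUBB4B*, *TUBB2B*, *TUBA1C*, *TUBB3*, *TUBB2A*, *TUBG1*, *TUBB6* and *TUBB4A*. The ranges of the control libraries overlapped between *TUBB2B* and *TUBA1C* and between *TUBA1C* and *TUBB3*. Within each control library *TUBA1C* was nevertheless above *TUBB3*, at 159, 145.9 and 126 against 125, 132 and 113 CPM per kilobase. *TUBB2B* was at 159, 155 and 132, level with *TUBA1C* in replicate 1 and above it in replicates 2 and 3. The other neighbors did not overlap. The middle of the order depended on the length used. With the length of the canonical transcript *TUBB3* ranked number 4 at 224 CPM per kilobase, and with the number of unique 32-base words as the length it ranked number 7, while *TUBB2B* and *TUBB2A* moved to numbers 3 and 4. *TUBB4B* then fell to number 5, below both of them. Without a length it was also number 5, at a mean of 382.1 CPM against 382.3 for *TUBB3*. *TUBA1B* and *TUBA1A* kept ranks 1 and 2, and *TUBG1*, *TUBB6* and *TUBB4A* ranks 8, 9 and 10, under every length tried and without a length.

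Most members also shared a pattern from library to library. In 9 of the 10 genes, all but *TUBB4A*, replicate 3 was the lowest library of both groups, a pattern found in 21.8% of the 14776 genes tested. Across the 6 libraries the log2 CPM of *TUBA1C* had a Pearson r of 0.95 with that of *TUBA1B*, *TUBB2B* 0.91, *TUBA1A* 0.87, *TUBG1* 0.80, *TUBB3*, *TUBB4B* and *TUBB6* 0.74, 0.74 and 0.73, and *TUBB2A* 0.52. Among 11802 other genes with a mean log2 CPM of at least 2, those most like *TUBA1B* were *COPG1*, which encodes a coat protein of Golgi vesicles (r = 0.99), *RPL38*, which encodes a ribosomal protein (r = 0.99), and *CMPK2*, which encodes a mitochondrial nucleotide kinase (r = 0.99). Of the 11802 genes *TUBA1C* ranked number 50 by r, *TUBB2B* 177, *TUBA1A* 299, *TUBG1* 679, *TUBB3* 1003, *TUBB4B* 1007, *TUBB6* 1073 and *TUBB2A* 2495. *TUBB4A* lay below this level and was not ranked. All these values rest on the same 6 libraries, and the correlations are given as descriptions.

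The isotype make-up of the control cells was stated as shares of the summed level per kilobase of the isotypes listed, separately for alpha- and beta-tubulin. Among the 3 alpha-tubulin genes *TUBA1B* took 67.3% ± 0.36, *TUBA1A* 25.7% ± 0.34 and *TUBA1C* 6.96% ± 0.11 (SD, n = 3 for each). Among the 6 beta-tubulin genes *TUBB4B* took 38.8% ± 0.93, *TUBB2B* 23.6% ± 0.46, *TUBB3* 19.6% ± 0.79 and *TUBB2A* 15.3% ± 0.68 (SD, n = 3 for each). *TUBB6* took 2.73% ± 0.11 and *TUBB4A* 0.064% ± 0.015 (SD, n = 3 for each). The neuron-typical *TUBB2A*, *TUBB2B* and *TUBB3* together made up 57.3%, 59.3% and 58.8% of the beta-tubulin level listed in the 3 control libraries, with a mean of 58.4% ± 1.06 (SD, n = 3). Without *TUBB2A*, the near-copy of *TUBB2B*, the mean was 43.2% ± 0.83. With unique words as the length the mean of the 3 genes was 71.0%, and with the canonical transcript length 63.0%.

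**Figure D1:**
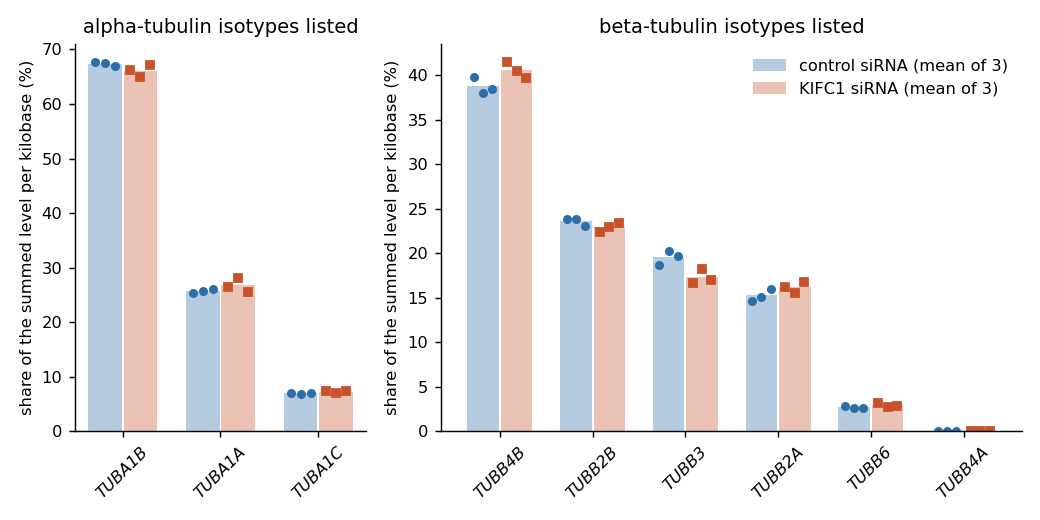
Share of each isotype in the summed level per kilobase of the alpha-tubulin genes listed (left) and of the beta-tubulin genes listed (right), in percent, with bars for means of 3 libraries and points for single libraries. The *TUBB3* points with KIFC1 siRNA (16.7% to 18.2%) lie below those with control siRNA (18.7% to 20.2%), and every other isotype overlaps between groups.

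The single shares moved with the length far more than with the library. The share of *TUBB3* was 27.1% with the longest coding transcript, 30.1% with the canonical transcript and 13.3% with unique words. The share of *TUBB2A* was 12.9% with the canonical transcript and 27.8% with unique words, so that *TUBB2B*, *TUBB2A* and *TUBB4B* then stood at 29.9%, 27.8% and 27.4%. *TUBA1B* held the largest alpha-tubulin share under every length, from 58.9% without a length to 75.9% with unique words. In bulk RNA such as this, fewer cells that make an isotype and less of its RNA per cell cannot be told apart.

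**Figure D2:**
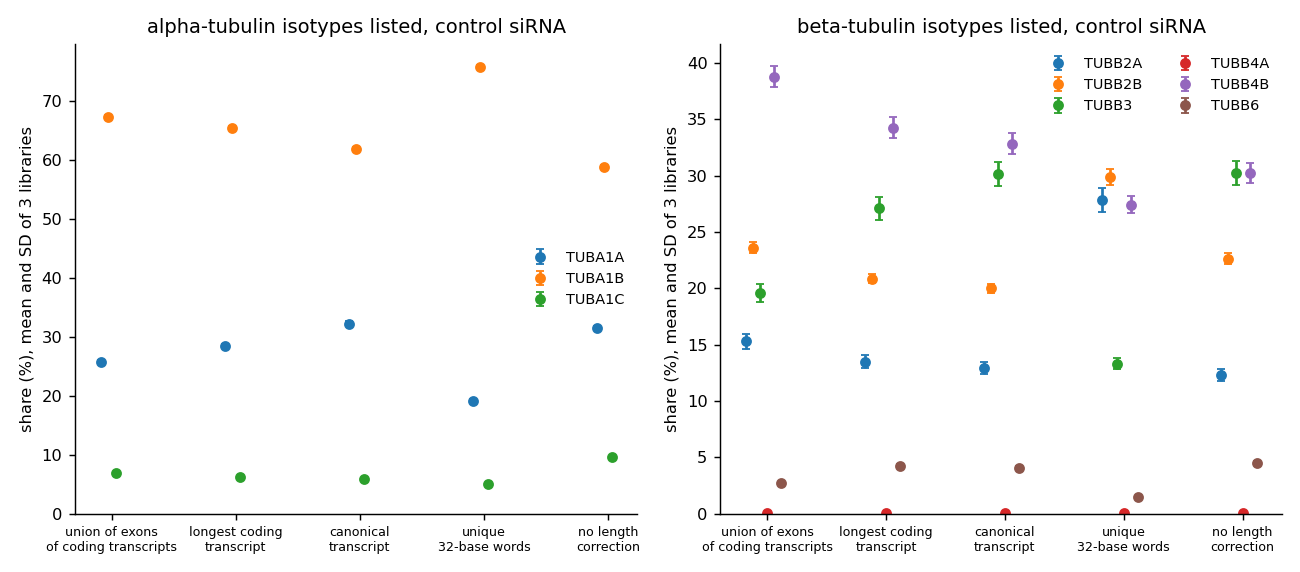
Share of each isotype with control siRNA, in percent, under 4 definitions of gene length and without a length, as the mean of 3 libraries with bars of 1 SD. *TUBB3* ranges from 13.3% to 30.3% and *TUBB2A* from 12.3% to 27.8%, while bars between libraries stay short.

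Whether knockdown of *KIFC1* altered the tubulin genes was asked by comparing the KIFC1 siRNA libraries with the control siRNA libraries. None of the 10 genes was called (0 of 10 at an adjusted p under 0.05, quasi-likelihood fit of edgeR, Benjamini-Hochberg adjustment over the 14776 genes tested), beside 0.711% of all genes tested. At an unadjusted p under 0.05 the count was also 0 of 10, beside 9.24% of all genes. DESeq2's Wald test and limma-voom likewise called 0 of 10 and had 0 of 10 at an unadjusted p under 0.05. With the replicate number as a block, 0 of 10 were called beside 5.78% of all genes, and 3 of 10 (*TUBB2A*, *TUBB4B* and *TUBB6*, all higher) had an unadjusted p under 0.05 beside 17.7%.

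The alpha-tubulin genes differed between groups by less than the spread between libraries. *TUBA1B* was at 3185, 2982 and 2490 CPM with control siRNA and at 3133, 2747 and 2583 CPM with KIFC1 siRNA, and the groups overlapped. Its log2 fold change was -0.03 (standard error 0.13, edgeR adjusted p = 0.976), and the 95% interval of the fold change ran from 0.807 to 1.18. *TUBA1A* was at 1675, 1595 and 1359 CPM with control siRNA and at 1762, 1670 and 1378 CPM with KIFC1 siRNA, a log2 fold change of 0.06 (standard error 0.13, edgeR adjusted p = 0.949). These overlapped too, and so did *TUBA1C*, at 523, 479 and 415 CPM against 547, 466 and 447 CPM (log2 fold change 0.04, standard error 0.12, edgeR adjusted p = 0.963).

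Of the beta-tubulin genes *TUBB2A* was the single member whose groups did not overlap, beside 15.5% of all genes tested. It was at 158, 159 and 149 CPM with control siRNA and at 199, 172 and 160 CPM with KIFC1 siRNA. Its log2 fold change was 0.19 (standard error 0.11, edgeR adjusted p = 0.688), with a 95% interval of 0.966-fold to 1.34-fold. The lowest KIFC1 siRNA library of *TUBB2A* stood just above the highest control library. Its near-copy *TUBB2B*, with which it shares most of its words, was at 306, 299 and 254 CPM against 327, 301 and 266 CPM (log2 fold change 0.06, standard error 0.11, edgeR adjusted p = 0.943).

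*TUBB4B* was at 415, 387 and 345 CPM with control siRNA and at 492, 431 and 366 CPM with KIFC1 siRNA. It was higher in 3 of 3 same-numbered pairs, yet the groups overlapped, and the log2 fold change was 0.17 (standard error 0.12, edgeR adjusted p = 0.777). *TUBB6* was at 63.1, 57.3 and 50.5 CPM against 80.3, 62.7 and 56.6 CPM, again higher in 3 of 3 pairs with overlapping groups (log2 fold change 0.22, standard error 0.14, edgeR adjusted p = 0.726). With the block the adjusted p in edgeR was 0.232 for *TUBB2A*, 0.229 for *TUBB4B* and 0.213 for *TUBB6*.

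*TUBB3* was at 387, 409 and 351 CPM with control siRNA and at 394, 385 and 311 CPM with KIFC1 siRNA. It was lower in 2 of the 3 pairs, the groups overlapped, and the log2 fold change was -0.07 (standard error 0.12, edgeR adjusted p = 0.920, 95% interval 0.797-fold to 1.13-fold). *TUBB4A* was read 24, 14 and 18 times with control siRNA and 7, 14 and 11 times with KIFC1 siRNA. Its log2 fold change of -0.69 was the largest in size among the members, but its standard error was 0.38 and its edgeR adjusted p 0.662, and at this depth a change from 0.350-fold to 1.10-fold lay within the 95% interval. The gamma-tubulin gene *TUBG1* was at 145, 144 and 119 CPM against 130, 132 and 109 CPM, lower in 3 of 3 pairs with overlapping groups (log2 fold change -0.13, standard error 0.12, edgeR adjusted p = 0.833).

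Apart from *TUBB4A*, the 95% intervals of the 9 other members without the block lay between 0.761-fold (*TUBG1*) and 1.45-fold (*TUBB6*). In that fit smaller changes in either direction could not be told from the spread of 3 libraries. With the block the unadjusted 95% intervals were 1.01-fold to 1.28-fold for *TUBB2A*, 1.01-fold to 1.24-fold for *TUBB4B* and 1.02-fold to 1.33-fold for *TUBB6*. None of these genes was called with the block. The median log2 fold change of the members was 0.05, beside 0.01 for all genes tested, with 6 of 10 above 0. The word GAGATCT, which was picked from an earlier scan of these data for words in genes that fell, was searched on the sense strand of the annotated 3′ UTRs. It occurred in 0 of 10 members and in 8.96% of the 12964 tested genes with such a region. With only 10 members a count of 0 cannot be told from that share.

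**Figure D3:**
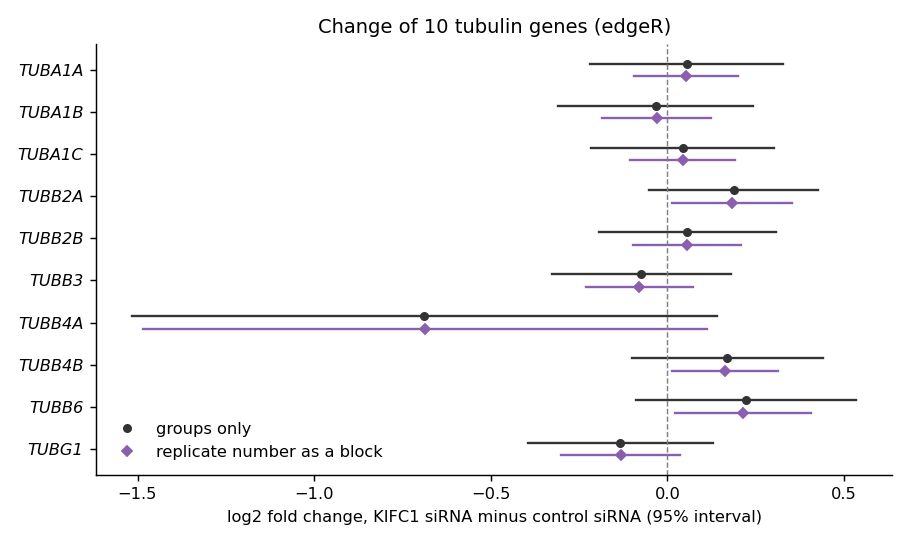
Log2 fold change of each tubulin gene, KIFC1 siRNA minus control siRNA, with 95% intervals from edgeR without a block (circles) and with the replicate number as a block (diamonds). All 10 intervals without the block cross 0, and those of *TUBB2A*, *TUBB4B* and *TUBB6* with the block lie just above 0.

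Shares gave a second reading in which the depth and the level common to a family cancel. The share of *TUBB3* among the beta-tubulin genes listed was 18.7%, 20.2% and 19.7% with control siRNA and 16.7%, 18.2% and 17.0% with KIFC1 siRNA. The groups did not overlap and the means were 19.6% ± 0.79 and 17.3% ± 0.78 (SD, n = 3), a difference of -2.25 percentage points that was negative in 3 of 3 pairs. The exact two-sided permutation test, which did not use the pairing, gave p = 0.1, and 0.257 after adjustment over the 9 isotype shares tested. That p of 0.1 is the smallest that 3 against 3 unpaired libraries allow. The share of *TUBB4B* was 39.8%, 38.0% and 38.4% against 41.5%, 40.5% and 39.8%, higher in 3 of 3 pairs with a mean difference of 1.80 percentage points (exact permutation p = 0.2). Shares of a family sum to a fixed total, so a lower share of *TUBB3* goes with a higher share of others by construction. The *TUBB3* groups did not overlap under any of the 4 other length settings, with mean differences from -3.09 to -1.61 percentage points. Those of *TUBB4B* did not overlap with the longest coding transcript, with the canonical transcript or without a length, and overlapped with unique words. The settings rescale the same counts of the same libraries, so they are not separate evidence.

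Among the alpha-tubulin shares, that of *TUBA1B* was 67.3% ± 0.36 with control siRNA and 66.1% ± 1.11 with KIFC1 siRNA, and that of *TUBA1A* was 25.7% ± 0.34 and 26.7% ± 1.31 (SD, n = 3). Both overlapped between groups, with exact permutation p of 0.2 and 0.3. The summed level of the 3 alpha-tubulin genes was 2066 CPM per kilobase with control siRNA and 2060 with KIFC1 siRNA, and that of the 6 beta-tubulin genes 630 and 677. By raw counts, the alpha-tubulin genes took 0.438% to 0.547% of a library and the beta-tubulin genes 0.115% to 0.150%.

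A list of 11 other tubulin genes was also counted, of which 8 passed the filter and 0 were called by edgeR, with 0 at an unadjusted p under 0.05 and 0 called by DESeq2 or limma-voom. *TUBA4A*, an alpha-tubulin gene whose product lacks the usual C-terminal tyrosine, had the highest level of them with control siRNA at 18.9 CPM per kilobase, beside 17.2 for *TUBB6*. It was at 61.3, 65.6 and 52.0 CPM against 73.8, 73.0 and 63.8 CPM (log2 fold change 0.24, standard error 0.12, edgeR adjusted p = 0.606). Those groups overlapped, although each KIFC1 siRNA library was above the control library of its number. With control siRNA *TUBE1* (epsilon) had a mean of 11.1 CPM per kilobase, *TUBG2* (the second gamma gene) 9.37, *TUBA3C* 4.24, *TUBD1* (delta) 4.05, *TUBA8* 1.42, *TUBB1* (the platelet beta-tubulin) 1.15 and *TUBA3D* 0.988 CPM per kilobase. The log2 fold changes of these 8 genes ran from -0.42 for *TUBA3D* to 0.33 for *TUBB1*.

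The partners of *TUBG1* and the machinery that folds tubulin gave no calls. The list of the gamma-tubulin ring complex and its anchors had 14 of 14 genes tested, 0 called and 0 at an unadjusted p under 0.05 in edgeR, and a median log2 fold change of -0.01. Its most positive log2 fold change was that of *TUBGCP3*, a core subunit (0.20, edgeR adjusted p = 0.723), and its most negative that of *CEP192*, a centrosome scaffold (-0.11, edgeR adjusted p = 0.897). The folding list, made of the CCT chaperonin, prefoldin and the tubulin cofactors, had 20 of 21 genes tested, 0 called, 0 at an unadjusted p under 0.05 and a median of 0.02. *TBCC* (0.20, edgeR adjusted p = 0.680) and *TBCD* (-0.22, edgeR adjusted p = 0.640), cofactors that act on the assembled dimer, had its most positive and most negative log2 fold changes. The gene not tested was *PFDN6*, which had 0 counts in all 6 libraries and 98.7% of whose words also occur on alternate sequences of GRCh38.

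Genes of tubulin RNA autoregulation, which are *TTC5*, its adaptor *SCAPER* and the CCR4-NOT deadenylase, were tested in full (12 of 12). Of these, 0 were called and 0 had an unadjusted p under 0.05 in edgeR, and their median log2 fold change was 0.03. *CNOT9* had the most positive log2 fold change (0.16, edgeR adjusted p = 0.737) and *CNOT3* the most negative (-0.26, edgeR adjusted p = 0.868). *CNOT3* stood at 12.8, 14.3 and 28.9 CPM with control siRNA, so that a single library set its mean, and 96.3% of its words also occur on alternate sequences. DESeq2 and limma-voom called 0 genes of the ring complex, folding and autoregulation lists.

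Of the list of tubulin modifying enzymes and their partners, edgeR called 0 of the 20 genes tested (of 24). At an unadjusted p under 0.05 there were 3 of 20 (*VASH1*, *SVBP* and the glutamylase gene *TTLL11*, all with negative log2 fold changes), beside 9.24% of all genes. Negative log2 fold changes made up 17 of 20, beside 7078 of all 14776 genes, and the median was -0.10 beside 0.01. With the replicate block 2 of 20 were called, both lower, beside 5.78% of all genes. These were *VASH1*, the vasohibin that removes the terminal tyrosine of alpha-tubulin, and *SVBP*, the small protein that vasohibins need in order to work. *VASH1* was at 21.1, 24.8 and 28.7 CPM with control siRNA and at 18.4, 17.8 and 18.2 CPM with KIFC1 siRNA, with no overlap. The log2 fold change of *VASH1* was -0.45 (standard error 0.14), and edgeR gave an adjusted p of 0.225 without and 0.0169 with the block.

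*SVBP* was at 8.10, 8.13 and 8.05 CPM with control siRNA and at 4.98, 6.18 and 4.89 CPM with KIFC1 siRNA. Every KIFC1 siRNA library lay below every control library, and the log2 fold change was -0.60 (standard error 0.18), and edgeR gave an adjusted p of 0.212 without and 0.0271 with the block. Over all alternatives the adjusted p ran from 0.0169 to 0.849 for *VASH1* and from 0.0271 to 0.636 for *SVBP*. *TTL*, the ligase that puts the tyrosine back, was at 217, 204 and 204 CPM against 205, 184 and 203 CPM (a gene named after its values were seen, log2 fold change -0.08, edgeR adjusted p = 0.897). Among enzymes with a mean log2 CPM of at least 2 the most positive value was that of *AGBL2*, a carboxypeptidase (0.22, edgeR adjusted p = 0.874). DESeq2 and limma-voom called 0 of the 20.

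The proteins that bind microtubules were covered by the last lists. Of 19 tested microtubule-associated proteins and stathmins (of 20), edgeR called 0, with 1 at an unadjusted p under 0.05 and a median log2 fold change of -0.13, and the block called 1 of 19 beside 5.78% of all genes. This was *DPYSL5*, a collapsin response mediator protein of growing neurons, at 446, 482 and 488 CPM against 402, 382 and 398 CPM with no overlap (log2 fold change -0.26, standard error 0.09, edgeR adjusted p = 0.359 without and 0.0304 with the block). *STMN2*, a neuronal stathmin that binds free dimers, had the most positive log2 fold change (0.12, edgeR adjusted p = 0.855). Of 14 tested plus-end binding, polymerizing and severing proteins (of 15), edgeR called 0, with 1 at an unadjusted p under 0.05 and a median of -0.03, and the block called 1 of 14 beside the same 5.78%. Counts of 1 in either list are near that share.

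The plus-end gene called with the block was *CLASP1*, which stabilizes microtubule plus ends at kinetochores and the cell cortex. It was at 197, 178 and 198 CPM with control siRNA and at 158, 136 and 172 CPM with KIFC1 siRNA, with no overlap. The log2 fold change of *CLASP1* was -0.30 (standard error 0.11), and edgeR gave an adjusted p of 0.387 without and 0.0208 with the block. *SPAST*, the severing enzyme spastin, had the most positive log2 fold change (0.23, edgeR adjusted p = 0.575) and *CLIP2* the most negative (-0.35, edgeR adjusted p = 0.707). Both lists had 0 calls by DESeq2 and by limma-voom. In *DPYSL5* and *CLASP1*, as in *VASH1* and *SVBP*, the value was lower in 3 of 3 pairs. These genes were picked by the block fit, which compares within pairs, so the pairs add no separate support.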

How the data were processed

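RNA sequencing of NCI-H146 cells gave 3 control siRNA and 3 KIFC1 siRNA libraries. The submitters' processing notes name HISAT2 2.2.1, featureCounts 2.0.8, R 4.4.2 and DESeq2 1.46.0. The authors aligned reads to GRCh38 and deposited whole counts of reads per gene, not normalized, for 28395 NCBI gene IDs, of which 27745 were matched to a symbol. The gene annotation is not given in the sources used here.

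The test was a robust quasi-likelihood fit in edgeR 4.0.16 (R 4.3.3) with group as the only term (TMM scaling, genes kept by filterByExpr, Benjamini-Hochberg adjustment over 14776 genes, threshold 0.05). The biological coefficient of variation was 13.1%. Depth was 15392374 to 17754458 counts per library. Intervals for ratios of counts cover counting error only. DESeq2 1.42.0 and limma 3.58.1 were alternatives, beside other scalings and filters, each library left out in turn, and the replicate number as a block. Lengths, coding sequences and 32-base words came from GENCODE 44 and GRCh38, with 261 alternate sequences searched apart. Lengths of the canonical transcript were added after the data were seen. Shares were compared by exact permutation of the libraries between groups, without the pairing, in Python 3.11.15 with scipy 1.17.1. The edgeR script was tested on simulated data.

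Same-numbered libraries deviated together from their group means (r of 0.481, 0.390 and 0.466 over 12169 genes with a mean of at least 50 counts, against -0.434 to -0.00761 for other pairs), so the numbers were taken to pair the libraries.

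The tubulin genes and lists were chosen with earlier results of these data known. The genes named are the 10 isotypes, *KIFC1*, in each related list the genes called with or without the block and the largest positive and negative log2 fold change at a mean log2 CPM of at least 2, other tubulin genes with a mean of at least 10 counts, and the 3 genes most like *TUBA1B*. The lists rest on general knowledge. A marker gene and some coding sequences are not reported here.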

Additional observations from a re-analysis of the deposited data

How the results depend on the processing

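None of the 10 tubulin genes was called under any alternative (with at least 10 counts in every library *TUBB4A* was not tested), and the replicate block changed no call among them (0 of 10). The smallest adjusted p of a member was 0.155 (*TUBB6*, without KIFC1 siRNA replicate 3). Over all genes, 49 were called higher and 56 lower, against 402 and 452 with the replicate block and 123 and 140 with DESeq2. Without one library at a time these counts ran from 9 to 194 higher and from 15 to 274 lower, with the most calls without KIFC1 siRNA replicate 3 and the fewest without control siRNA replicate 3. The block called 2 genes of the modifying-enzyme list, 1 microtubule-associated protein and 1 plus-end protein lower, where the fit without it called 0 in each list, and it called *NCAM1*. *NCAM1* was also called lower by DESeq2 and without KIFC1 siRNA replicate 3, and *CHGA* was called higher without KIFC1 siRNA replicate 1. *DLL3* too was called higher under an alternative edgeR fit other than the block (smallest edgeR adjusted p 0.019). Its log2 fold change ran from 0.12 to 0.44 over the alternatives. The block changed no other call among the genes named.

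The shares with control siRNA depended on the length. With the longest coding transcript *TUBA1A*, *TUBA1B* and *TUBA1C* had 28.4%, 65.4% and 6.18%, with unique words 19.2%, 75.9% and 4.96%, with the canonical transcript 32.3%, 61.9% and 5.84%, and without a length 31.5%, 58.9% and 9.64%. *TUBB2A*, *TUBB2B*, *TUBB3*, *TUBB4B* and *TUBB6* had 13.5%, 20.9%, 27.1%, 34.2% and 4.24% with the longest coding transcript. They had 27.8%, 29.9%, 13.3%, 27.4% and 1.52% with unique words, 12.9%, 20.0%, 30.1%, 32.8% and 4.07% with the canonical transcript, and 12.3%, 22.6%, 30.3%, 30.2% and 4.50% without a length. *TUBB4A* had 0.041% with unique words and 0.087% without a length. The cause was the length itself, since the counts stayed the same.

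Some small log2 fold changes crossed 0 when single libraries were left out, none of them called. Their ranges were -0.029 to 0.15 for *TUBA1A*, -0.13 to 0.045 for *TUBA1B*, -0.050 to 0.12 for *TUBA1C*, -0.022 to 0.13 for *TUBB2B*, -0.14 to 0.026 for *TUBB3*, -0.085 to 0.30 for *TUBA3C*, -0.19 to 0.036 for *TUBA8*, -0.25 to 0.15 for *TUBG2*, -0.12 to 0.12 for *TUBD1*, -0.26 to 0.011 for *CEP192*, -0.47 to 0.21 for *CNOT3* and -0.025 to 0.32 for *AGBL2*. *TUBD1*, at 0.0024, was also below 0 with DESeq2 (-0.00204), its size factors (-0.00207), library size only (-0.011), limma-voom (-0.0075), no filter (-0.00671), the replicate block (-0.0040) and without mitochondrial genes (-0.000781). *TUBB4A* and *KIFC1* had at most 24 and 14 counts in a library, which limits the precision of their values.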
